A study of Mus musculus with 16 samples.

Results

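The 5 genes described here encode CXC chemokines, small secreted proteins that guide leukocytes: Cxcl1, Cxcl2, Cxcl3, Cxcl10 and Cxcl16. They were taken by name from 54838 gene identifiers in the count files, with earlier results of these data known. Counts of members called below therefore do not stand for the whole CXC family. All 5 passed the filter on low counts that left 12612 genes to test. RNA was sequenced from bone marrow-derived macrophages of Apoe-deficient mice, labelled with the genotype B6.129P2-Apoetm1Unc/J and the strain C57BL/6J. The cells were grown out in medium conditioned by L929 cells and treated without serum. All 4 groups carry the same disrupted Apoe, and each holds 4 libraries. The TMP195+TNFα group received TMP195, an inhibitor of class IIa histone deacetylases, at 5 µM for 1 h and then TNFα at 50 ng/ml for 24 h. The TPCA-1+TNFα group received TPCA-1, an inhibitor of the kinase IKK2, at 500 nM for 1 h before the same TNFα. The TNFα group received TNFα at 50 ng/ml for 24 h, and the DMSO group is labelled with the solvent. The labels do not say whether the TNFα group was also given DMSO, nor whether replicates came from separate mice or separate cultures, so p-values here cover only how much these libraries vary, which may be technical.

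As background, TNFα bound to its receptor activates the IKK complex, which releases NF-kB to enter the nucleus and switch on inflammatory genes. Cxcl1, Cxcl2 and Cxcl3 attract neutrophils through the receptor Cxcr2. Cxcl10 attracts T cells through Cxcr3 and is known both as an NF-kB target and as an interferon-induced gene. Cxcl16 differs from the others in that it is made as a membrane protein, which binds Cxcr6 and takes up oxidized lipoprotein, and which the protease Adam10 can release from the cell.

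In the GRCm38 annotation of GENCODE M21, 4 of the 5 genes lie on chromosome 5. Cxcl3 (ENSMUSG00000029379) spans 90786103 to 90789600, Cxcl1 (ENSMUSG00000029380) spans 90891241 to 90893115 and Cxcl2 (ENSMUSG00000058427) spans 90903871 to 90905938, all on the plus strand. Cxcl1 ends 10.755 kb before Cxcl2 begins, and Cxcl3 ends 101.64 kb before Cxcl1. Cxcl10 (ENSMUSG00000034855) lies 1440.7 kb further along, on the minus strand from 92346638 to 92348889, and is overlapped by Art3 on the plus strand. Cxcl16 (ENSMUSG00000018920) is on chromosome 11, on the minus strand from 70453983 to 70459984, overlapped by Zmynd15 on the plus strand. The counts used here are stranded, so reads of Art3 and Zmynd15 are kept apart from those of Cxcl10 and Cxcl16.

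The sequence upstream of the 4 genes on chromosome 5 is shown because Cxcl1, Cxcl2 and Cxcl3 share a run of letters there that Cxcl10 lacks. Each run is RefSeq sequence of GRCm38.p6, 5′ to 3′ on the gene's own strand, from 250 to 31 bases before the RefSeq start (220 bases). The positions are chr5:90890995-90891214 for Cxcl1, chr5:90903649-90903868 for Cxcl2 and chr5:90785851-90786070 for Cxcl3, all on the plus strand, and chr5:92348920-92349139 for Cxcl10 on the minus strand. Capitals mark matches to the NF-kB consensus on either strand and, in Cxcl10, an interferon-response core that reads GAAA, any 2 bases, GAAA.
Cxcl1: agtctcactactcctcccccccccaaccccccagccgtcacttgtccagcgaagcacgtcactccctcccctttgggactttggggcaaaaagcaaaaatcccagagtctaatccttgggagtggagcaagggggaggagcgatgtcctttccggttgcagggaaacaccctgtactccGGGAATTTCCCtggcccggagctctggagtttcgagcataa
Cxcl2: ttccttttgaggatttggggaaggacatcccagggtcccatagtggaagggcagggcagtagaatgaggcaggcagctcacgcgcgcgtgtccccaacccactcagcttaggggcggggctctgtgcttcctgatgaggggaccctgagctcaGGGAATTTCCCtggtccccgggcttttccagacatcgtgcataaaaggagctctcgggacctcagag
Cxcl3: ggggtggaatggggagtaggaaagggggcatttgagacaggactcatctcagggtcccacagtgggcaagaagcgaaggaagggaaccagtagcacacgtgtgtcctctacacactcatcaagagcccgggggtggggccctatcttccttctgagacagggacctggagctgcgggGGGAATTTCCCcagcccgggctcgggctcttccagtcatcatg
Cxcl10: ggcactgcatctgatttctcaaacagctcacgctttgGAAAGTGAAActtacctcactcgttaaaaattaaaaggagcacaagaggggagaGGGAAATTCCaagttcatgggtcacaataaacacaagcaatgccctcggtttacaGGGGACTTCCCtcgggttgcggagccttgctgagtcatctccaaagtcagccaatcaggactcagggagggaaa

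The longest run common to Cxcl1, Cxcl2 and Cxcl3 was gggaatttccc (11 bases), which matches the NF-kB consensus on both strands. Its first base lay 71 bases before the RefSeq start in Cxcl1, 97 bases in Cxcl2 and 73 bases in Cxcl3. Between Cxcl1 and Cxcl2 the run went on to gggaatttccctgg (14 bases). Searched on both strands, the 11-base run was held by 13 of 32851 RefSeq windows of the same length (0.0396%), and any match to the NF-kB consensus by 6.34% of them. Cxcl10 had NF-kB matches that began 159 and 104 bases before its start, the second one overlapping a match shifted by 1 base. It alone of the 4 genes held the interferon-response core, which began 213 bases before the start and was held by 2.63% of all windows. It also alone held the AP-1 core TGANTCA, which began 74 bases before the start and was held by 6.12% of all windows. The matches describe letters within these windows and were not compared with binding data.

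**Figure D1:**
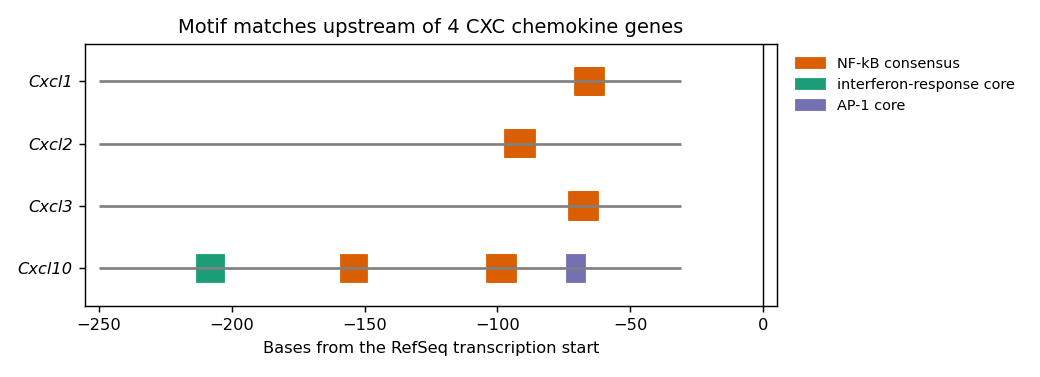
Positions of motif matches in the 220 bases shown for 4 genes; the x axis gives bases from the RefSeq start and colours give the motif. Cxcl1, Cxcl2 and Cxcl3 each have 1 NF-kB block, 61 to 97 bases before the start, while Cxcl10 has a pair of NF-kB blocks, an interferon-response core and an AP-1 core.

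Counted reads per library came to 7.49 to 31.6 in units of 1e6, and Apoe had 1 to 11 reads in each of the 16 libraries. TPCA-1+TNFα 2 was the shallowest library with 44.0% unmapped reads where every other library had 4.003% to 7.11%. Replicates of number 4 stood apart from the rest of their group: outside the TPCA-1+TNFα group, the chi-square per gene between 2 libraries was 27.3 to 66.8 in pairs with number 4 and 13.5 to 24.9 in the other pairs. All 8 macrophage markers were measured in every group. Their summed level in counts per 1e6 reads after TMM scaling of library sizes (CPM) was 12535 to 17964 in TMP195+TNFα libraries and 12898 to 21144 in TPCA-1+TNFα libraries. It was 17782 to 25964 in TNFα libraries and 16304 to 25361 in DMSO libraries. Lyz2 had the highest mean of the 8. The sum hides changes of single markers at an adjusted p under 0.05 in edgeR's test. With TNFα over DMSO 1 of 8 was higher and 3 lower, where 10.9% and 12.4% of all genes were. With TPCA-1 over TNFα 0 were higher and 4 lower, where 9.67% and 9.72% were. With TMP195 over TNFα 0 were higher and 1 lower, where 2.95% and 3% were. Of 8 neutrophil markers, 4 were at 0 in all 16 libraries and 7 stayed under 1 CPM, so that the list's sum (28.7 to 38.0 CPM in TPCA-1+TNFα libraries and 37.01 to 112 CPM in all others) was nearly all Csf3r. Of 8 fibroblast and endothelial markers 6, and all 7 lymphocyte and all 5 mast cell and basophil markers, stayed under 1 CPM in every library. Pecam1 led the fibroblast and endothelial list, which summed to 15.9 to 40.1 CPM in TPCA-1+TNFα libraries and 4.43 to 11.03 CPM in all others, and Zbtb46 the list of dendritic cell markers, which summed to at most 2.03 CPM. The part that cells carrying Csf3r or Pecam1 have in the chemokine values was not tested, and in bulk RNA fewer cells that express a gene and less RNA per cell cannot be told apart.

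TNFα against DMSO shows how the 5 transcripts responded to the cytokine itself. All 5 were higher with TNFα, by a fold that ran from 149 for Cxcl3 to 1.36 for Cxcl16. In order of replicate number, Cxcl3 stood at 129, 187, 125 and 141 CPM in TNFα libraries, against 0.737, 0.690, 0.492 and 2.03 CPM in DMSO libraries. Cxcl1 stood at 96.7, 162, 104 and 43.5 CPM in TNFα libraries, against 2.00, 3.94, 1.61 and 0.468 CPM in DMSO libraries. Cxcl2, the most abundant of the 3 neutrophil attractants, stood at 513, 763, 725 and 643 CPM in TNFα libraries, against 14.3, 20.01, 14.5 and 19.8 CPM in DMSO libraries. In all 3 the lowest TNFα library lay more than 10 times above the highest DMSO library, so the groups were far apart. Cxcl10 stood at 89.8, 43.0, 64.9 and 57.9 CPM in TNFα libraries, against 18.7, 10.5, 5.45 and 14.7 CPM in DMSO libraries. Cxcl16 stood at 268, 239, 239 and 284 CPM in TNFα libraries, against 194, 186, 156 and 222 CPM in DMSO libraries. The groups of Cxcl10 and Cxcl16 thus lay closer together than those of the other 3 genes, still with no overlap.

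In edgeR's quasi-likelihood test with Benjamini-Hochberg adjustment, Cxcl3 rose by a log2 fold change of 7.22 ± 0.49 (SE, 4 libraries against 4, adjusted p = 2.26e-08). Cxcl1 rose by 5.65 ± 0.70 (adjusted p = 1.08e-05) and Cxcl2 by 5.27 ± 0.28 (adjusted p = 1.67e-09). Cxcl10 rose by 2.38 ± 0.44 (adjusted p = 0.000572) and Cxcl16 by 0.44 ± 0.11 (adjusted p = 0.00694). Thus 5 of 5 members were called higher, where 10.9% of the 12612 genes tested were, and 5 of 5 had all TNFα libraries above all DMSO libraries, where 12.9% of genes did. The median change of the 5 was 5.27 on the log2 scale, against 0.00 over all genes. Leaving out any 1 library, or number 4 of every group, ended none of these calls.

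**Figure D2:**
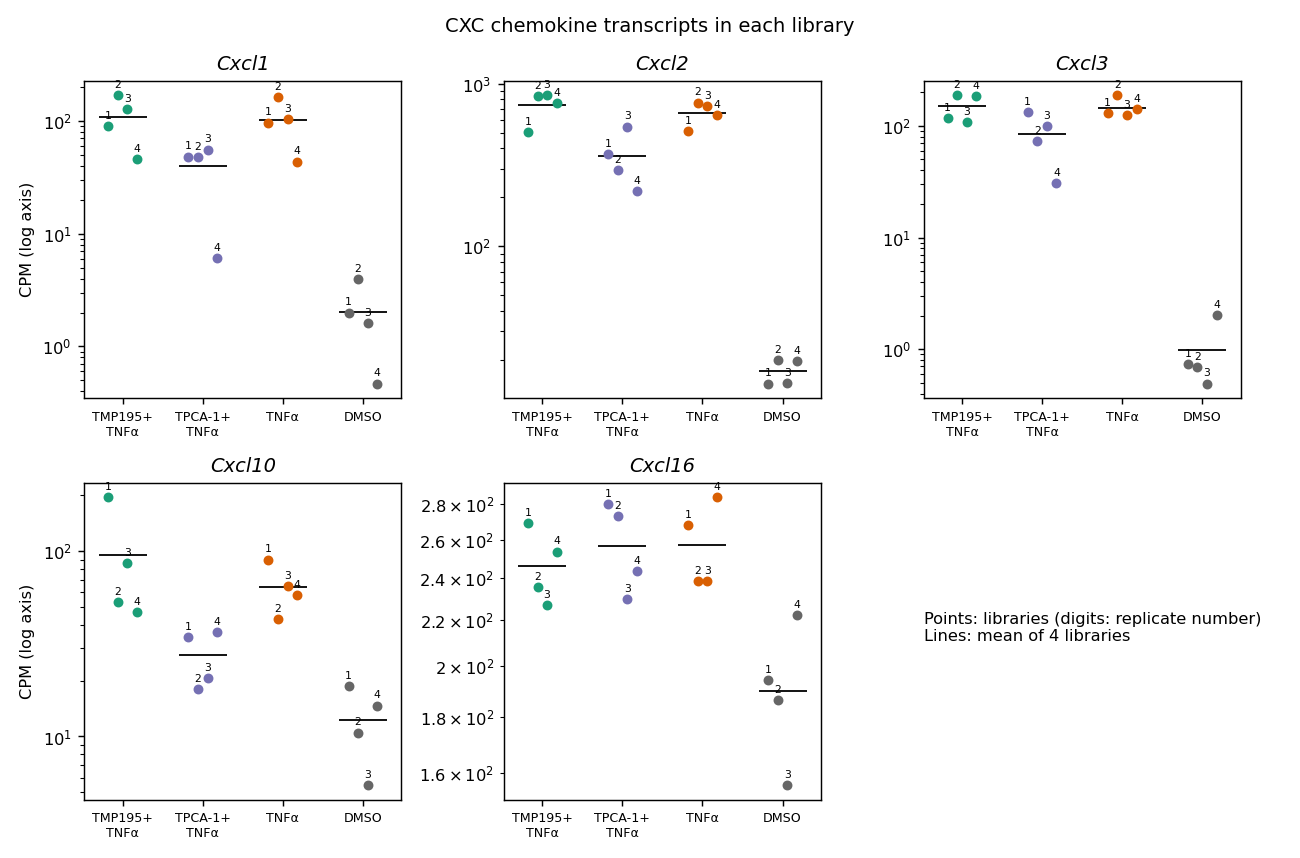
Level of each gene in each library in CPM on a log axis whose range differs between panels; digits give the replicate number and lines the mean of 4 libraries. Cxcl1, Cxcl2 and Cxcl3 lie far above DMSO in every group given TNFα, Cxcl16 moves little, and Cxcl1 is lowest in number 4 of every group.

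Levels of different genes can be set side by side only per length, so counts were divided by the merged exon length of each gene and scaled to TPM, a unit that sums to 1e6 in each library. In TNFα libraries the order was Cxcl2 at 845 ± 163 TPM (SD, n = 4), Cxcl16 at 224 ± 19.99 TPM, Cxcl1 at 143 ± 71.6 TPM, Cxcl3 at 110 ± 25.5 TPM and Cxcl10 at 74.1 ± 19.996 TPM. Cxcl1 overlapped with Cxcl16 and Cxcl3, and Cxcl3 with Cxcl10, while the lowest Cxcl2 library at 626 TPM lay above every library of the other members. In DMSO libraries Cxcl16 led at 174 ± 25.3 TPM, followed by Cxcl2 at 22.9 ± 4.39 TPM, Cxcl10 at 15.1 ± 6.90 TPM, Cxcl1 at 2.96 ± 2.16 TPM and Cxcl3 at 0.780 ± 0.557 TPM. There Cxcl2 overlapped with Cxcl10 and Cxcl1 with Cxcl3, and the other neighbours did not overlap. The sum over the 5 genes was 1623 ± 212 TPM in TMP195+TNFα libraries, 824 ± 214 TPM in TPCA-1+TNFα libraries, 1397 ± 206 TPM in TNFα libraries and 215 ± 33.1 TPM in DMSO libraries. Cxcl16 made up 14.3% ± 2.77 of that sum in TMP195+TNFα libraries, 28.5% ± 7.97 in TPCA-1+TNFα libraries, 16.4% ± 3.15 in TNFα libraries and 80.7% ± 1.97 in DMSO libraries. Cxcl2 made up 60.9% ± 8.37 in TMP195+TNFα libraries, 53.7% ± 7.40 in TPCA-1+TNFα libraries, 60.2% ± 4.76 in TNFα libraries and 10.7% ± 1.59 in DMSO libraries. Cxcl16 thus had the highest mean share in DMSO libraries and Cxcl2 in each group given TNFα. With the longest protein-coding transcript as the length, chosen after the data were seen, Cxcl3 in TNFα libraries came to 270 ± 62.2 TPM and Cxcl16 to 179 ± 16.2 TPM, which turns their order round. Cxcl2 stayed first in TNFα libraries, at 668 ± 127 TPM, but its share of the sum by this length was under 50% in each group given TNFα: 48.1% in TMP195+TNFα libraries, 44.0% in TPCA-1+TNFα libraries and 47.5% in TNFα libraries. That of Cxcl16 in DMSO libraries was 76.9%.

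**Figure D3:**
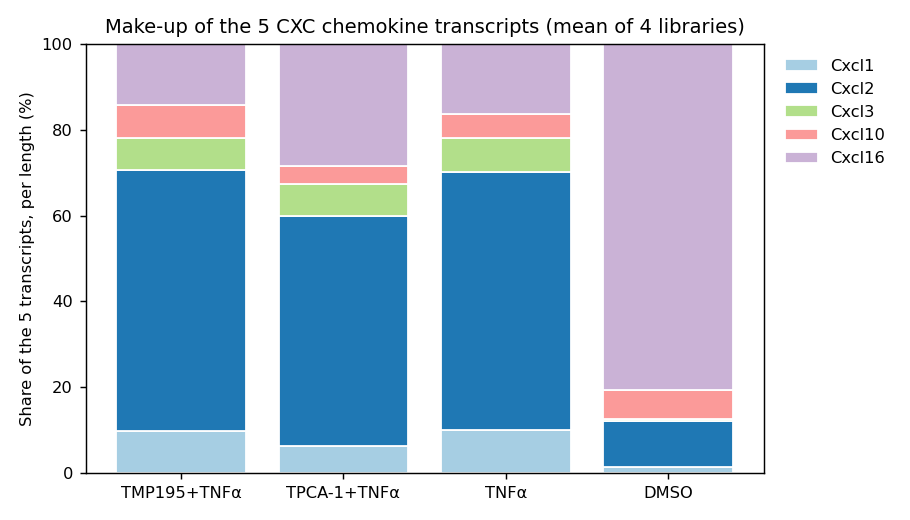
Share of each gene in the summed level of the 5, per merged exon length, as the mean of 4 libraries a group. Cxcl16 fills 80.7% of the DMSO bar, and Cxcl2 fills 60.9%, 53.7% and 60.2% of the TMP195+TNFα, TPCA-1+TNFα and TNFα bars.

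The second comparison asks what TMP195 added to TNFα. None of the 5 transcripts was called changed, and their levels overlapped with those under TNFα alone in every case. Cxcl1 stood at 90.4, 168, 127 and 45.7 CPM in TMP195+TNFα libraries, beside the TNFα values above, with a log2 fold change of 0.09 ± 0.54 (95% interval -1.04 to 1.22). Cxcl2 stood at 505, 835, 846 and 755 CPM in TMP195+TNFα libraries and differed by 0.15 ± 0.23 (-0.33 to 0.64). Cxcl3 stood at 118, 187, 108 and 185 CPM in TMP195+TNFα libraries and differed by 0.04 ± 0.34 (-0.67 to 0.75). For these 3 neutrophil attractants the estimates were near 0, with the widest interval for Cxcl1. Cxcl10 stood at 195, 53.3, 85.9 and 47.03 CPM in TMP195+TNFα libraries and differed by 0.58 ± 0.41 (-0.29 to 1.44). That estimate rested on TMP195+TNFα 1, the highest Cxcl10 library of the study, and was -0.047 without it. Cxcl16 stood at 269, 236, 227 and 254 CPM in TMP195+TNFα libraries and differed by -0.06 ± 0.11 (-0.30 to 0.17), the narrowest interval of the 5.

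In edgeR's test the adjusted p values of the 5 ran from 0.534 to 0.979, and 0 of 5 were called, where 750 of the 12612 genes (5.95%) were called in either direction. DESeq2 and limma also called 0 of 5, and 0 of 5 reached an unadjusted p under 0.05. With the replicate number as a block, which the pairing check allows for this comparison, 1699 genes and still 0 members were called. Between libraries of equal number, Cxcl2 with TMP195 stood at log2 differences of -0.02, 0.13, 0.22 and 0.23 from TNFα, and Cxcl10 at 1.12, 0.31, 0.41 and -0.30. Cxcl2 was thus a little higher in 3 of 4 pairs, as was Cxcl10, whose pairs spread far more. The intervals bound the change rather than show that there was none, and they take the libraries as unpaired. For Cxcl16 a rise or fall by more than 0.30 on the log2 scale lies outside the interval, for Cxcl1 only one beyond 1.22. The Cxcl1 differences between libraries of equal number were -0.097, 0.059, 0.29 and 0.071, a much narrower spread than its unpaired interval.

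The third comparison asks what TPCA-1 added to TNFα. The mean levels of Cxcl1, Cxcl2, Cxcl3 and Cxcl10 were lower with TPCA-1, while Cxcl16 stayed at its TNFα level. Cxcl2 stood at 370, 296, 544 and 219 CPM in TPCA-1+TNFα libraries and fell by 0.89 ± 0.23 on the log2 scale (adjusted p = 0.0121 in edgeR's test). It is the 1 member called, in spite of an overlap in which TPCA-1+TNFα 3 lay above TNFα 1. Cxcl10 stood at 34.5, 17.97, 20.5 and 36.4 CPM in TPCA-1+TNFα libraries, with a difference of -1.21 ± 0.42 (adjusted p = 0.0524 in edgeR's test). It is the 1 member whose 4 libraries all lay below the 4 of TNFα, which held for 9.75% of genes. Cxcl1 stood at 48.3, 48.0, 55.8 and 6.08 CPM in TPCA-1+TNFα libraries, with a difference of -1.37 ± 0.55 (adjusted p = 0.0929 in edgeR's test). Cxcl3 stood at 133, 73.1, 99.2 and 30.8 CPM in TPCA-1+TNFα libraries, with a difference of -0.79 ± 0.34 (adjusted p = 0.116 in edgeR's test). In both genes TPCA-1+TNFα 4 was the lowest library of its group, and libraries of the 2 groups overlapped. Cxcl16 stood at 280, 273, 230 and 244 CPM in TPCA-1+TNFα libraries, with a difference of -0.00 ± 0.11 (95% interval -0.24 to 0.23, adjusted p = 0.981 in edgeR's test).

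Thus 1 of 5 members was called lower, where 9.72% of all genes tested were. The median difference of the 5 was -0.89 on the log2 scale, against 0.02 over all genes. The calls near the threshold turned on single libraries and on the fit. Cxcl1 passed without TNFα 4 (-1.63, adjusted p = 0.0429) and with number 4 left out of every group (-1.26, adjusted p = 0.00612), both in edgeR's test; the setting without number 4 was chosen after the data were seen. Cxcl3 passed without TPCA-1+TNFα 1 (-1.12, adjusted p = 0.0270 in edgeR's test), as did Cxcl10 (-1.35, adjusted p = 0.0449 in edgeR's test). Without the shallow TPCA-1+TNFα 2, Cxcl2 kept its call at -0.81 (adjusted p = 0.0395 in edgeR's test) and Cxcl10 stood at -1.07 (adjusted p = 0.138).

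**Figure D4:**
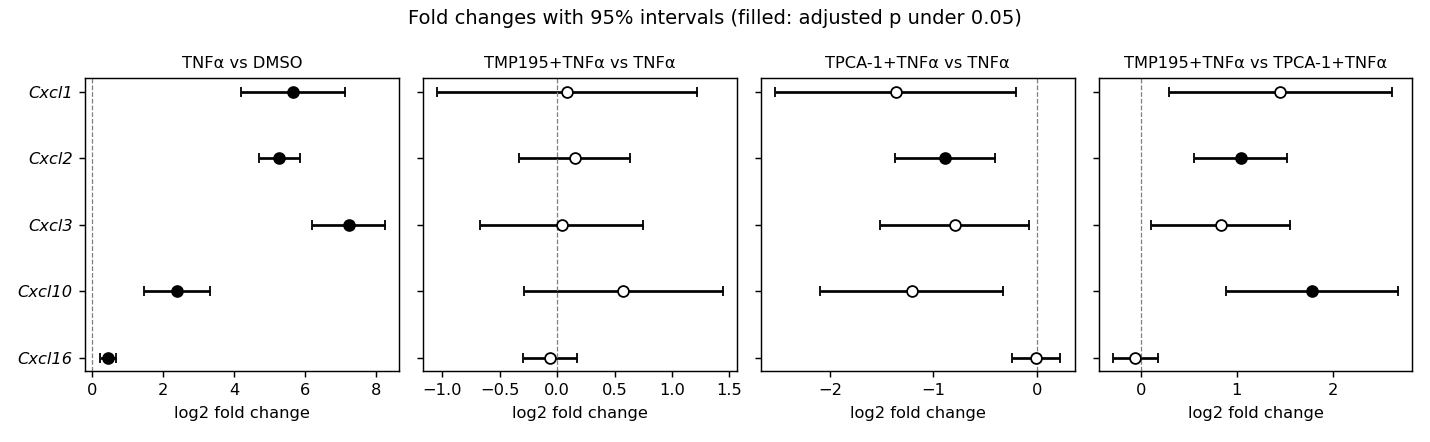
Log2 fold changes with 95% intervals in 4 comparisons, the first-named group over the second; filled points have an adjusted p under 0.05 in edgeR's test, and the x range differs between panels. All 5 points are filled for TNFα over DMSO, 0 for TMP195+TNFα over TNFα, Cxcl2 alone for TPCA-1+TNFα over TNFα, and Cxcl2 and Cxcl10 for TMP195+TNFα over TPCA-1+TNFα.

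Set directly against each other at these doses, the inhibitors differed for Cxcl2 and Cxcl10. With the levels given above, Cxcl2 was higher in TMP195+TNFα libraries than in TPCA-1+TNFα libraries by 1.04 ± 0.23 on the log2 scale (adjusted p = 0.00309 in edgeR's test). Cxcl10 was higher by 1.79 ± 0.43 (adjusted p = 0.00494 in edgeR's test), and its lowest TMP195+TNFα library at 47.03 CPM lay above its highest TPCA-1+TNFα library at 36.4 CPM. The size of that Cxcl10 difference includes the high TMP195+TNFα 1 at 195 CPM. Leaving out any 1 library kept the call, at 1.17 to 2.01 (adjusted p at most 0.0261 in edgeR's test). Cxcl1 differed by 1.45 ± 0.55 (adjusted p = 0.0622) and Cxcl3 by 0.83 ± 0.34 (adjusted p = 0.0830), both short of the threshold in edgeR's test. Cxcl16 differed by -0.06 ± 0.11 (adjusted p = 0.730 in edgeR's test). So 2 of 5 members were called higher, where 13.1% of genes were, and Cxcl10 alone had no overlap, which held for 12.5% of genes. Cxcl1 passed without TMP195+TNFα 4 (1.71, adjusted p = 0.0292) and with number 4 left out of every group (1.35, adjusted p = 0.00293), and Cxcl3 passed without TPCA-1+TNFα 1 (1.15, adjusted p = 0.0196), all in edgeR's test. The compounds act on different proteins and were used at different doses, so the difference is between these treatments.

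Against DMSO, all 5 members stayed higher in both inhibitor groups. In TMP195+TNFα libraries the log2 fold changes over DMSO were 7.26 for Cxcl3, 5.74 for Cxcl1, 5.42 for Cxcl2, 2.95 for Cxcl10 and 0.38 for Cxcl16, and 5 of 5 were called higher, where 13.6% of genes were. Cxcl16 lost that call without TMP195+TNFα 1 (0.33, adjusted p = 0.0538 in edgeR's test) or without DMSO 3 (0.29, adjusted p = 0.0657). In TPCA-1+TNFα libraries they were 6.43 for Cxcl3, 4.38 for Cxcl2, 4.29 for Cxcl1, 1.17 for Cxcl10 and 0.44 for Cxcl16, and 5 of 5 were called higher, where 14.8% of genes were. Cxcl10 was borderline there, with an adjusted p = 0.0496 in edgeR's test and libraries that overlapped between the groups. Its call ended without any of DMSO 2, 3 or 4 or TPCA-1+TNFα 1, 3 or 4, with the value lowest without DMSO 3 (0.91, adjusted p = 0.142), and also with number 4 left out of every group (1.10, adjusted p = 0.107). These comparisons share the DMSO libraries with the first one and are no independent measure of the TNFα response.

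The part of the TNFα rise that was present with each inhibitor was computed for each library as its level minus the DMSO mean, over the TNFα mean minus the DMSO mean. In TMP195+TNFα libraries it was 106% ± 52.5 for Cxcl1, 111% ± 24.6 for Cxcl2, 103% ± 29.3 for Cxcl3, 161% ± 133 for Cxcl10 and 83.7% ± 27.8 for Cxcl16 (SD, n = 4). In TPCA-1+TNFα libraries it was 37.7% ± 22.7 for Cxcl1, 52.8% ± 21.6 for Cxcl2, 57.4% ± 29.7 for Cxcl3, 29.1% ± 18.3 for Cxcl10 and 98.8% ± 35.2 for Cxcl16. With TPCA-1, then, part of the rise remained for each neutrophil attractant, the smallest mean part was that of Cxcl10, and the rise of Cxcl16 was about whole. These shares use the same TNFα and DMSO means for every library, so their SD leaves out the error of those means, and they carry no test.

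**Figure D5:**
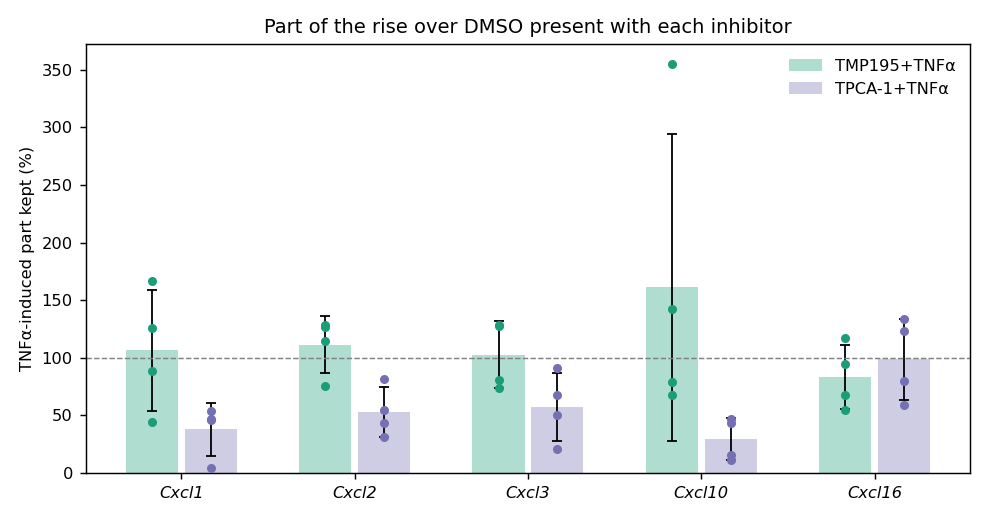
Part of the TNFα rise over DMSO present with each inhibitor, in percent; bars are means of 4 libraries, error bars SD and points single libraries. TMP195+TNFα bars lie between 83.7% and 161%, and TPCA-1+TNFα bars between 29.1% and 57.4% except for Cxcl16 at 98.8%.

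Whether members changed by unlike amounts was examined through the log2 ratio of each of the 10 pairs within a library, which does not depend on library size. The exact permutation test of 4 libraries against 4 cannot give a p below 0.0286, and over 40 tests (10 pairs, 4 comparisons) 0 passed the adjustment, the smallest adjusted p being 0.104. With that floor a ratio could pass only if many of the 40 reached it together, and 11 did. The adjusted values therefore cannot decide whether members changed by unlike amounts, however far apart the groups lay. For TNFα against DMSO, 8 of 10 ratios reached the smallest possible p; the exceptions were Cxcl1 to Cxcl2, which stood at -2.83 ± 0.73 in TNFα libraries and -3.00 ± 0.96 in DMSO libraries (SD, n = 4, exact p = 0.686), and Cxcl1 to Cxcl3. That test takes the libraries as unpaired. Between libraries of equal number, the plain log2 CPM differences of TNFα from DMSO were 5.60, 5.36, 6.02 and 6.54 for Cxcl1 and 5.16, 5.25, 5.65 and 5.02 for Cxcl2, larger for Cxcl1 in 4 of 4 pairs, a number of pairs whose exact sign-flip test cannot give a p below 0.125. For TMP195+TNFα against TNFα 0 of 10 ratios reached the smallest possible p of the permutation test. For TMP195+TNFα against TPCA-1+TNFα 1 of 10 did, that of Cxcl10 to Cxcl16. It stood at -1.60 ± 0.87 in TMP195+TNFα libraries and -3.27 ± 0.51 in TPCA-1+TNFα libraries. For TPCA-1+TNFα against TNFα 2 of 10 did, both with Cxcl16 below the line: Cxcl10 to Cxcl16 stood at -3.27 ± 0.51 in TPCA-1+TNFα libraries and -2.05 ± 0.40 in TNFα libraries, and Cxcl3 to Cxcl16 at -1.78 ± 0.86 in TPCA-1+TNFα libraries and -0.84 ± 0.33 in TNFα libraries. The ratio of Cxcl2 to Cxcl3 there was 2.19 ± 0.57 in TPCA-1+TNFα libraries and 2.18 ± 0.25 in TNFα libraries (exact p = 1).

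Replicates of a group varied more for 4 members than for most genes. The biological coefficient of variation in edgeR's model was 56.2% for Cxcl1, above 99.3% of the genes tested, 40.4% for Cxcl10, above 96.7%, 36.3% for Cxcl3, above 95.1%, and 23.1% for Cxcl2, above 76.9%. That of Cxcl16 was 12.0%, under the median of 16.998%. Cxcl1 was lowest in number 4 of every group, at 45.7 CPM in TMP195+TNFα 4, 6.08 CPM in TPCA-1+TNFα 4, 43.5 CPM in TNFα 4 and 0.468 CPM in DMSO 4. Cxcl10 was highest in number 1 of 3 groups, the exception being TPCA-1+TNFα. Cxcl3 in DMSO libraries went the other way from Cxcl1, with its highest value of 2.03 CPM in DMSO 4. Cxcl1 averaged 39.5 ± 22.6 CPM in TPCA-1+TNFα libraries and 102 ± 48.3 CPM in TNFα libraries (SD, n = 4 each). A difference of that size did not pass at this spread in the fit without a replicate block. With the replicate number as a block it was -1.50 on the log2 scale (adjusted p = 0.000252 in edgeR's test). Numbers pair TPCA-1+TNFα libraries only loosely.

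Of 10 other CXC ligands, 5 passed the filter on low counts. Pf4, the platelet factor that macrophages also express, was the most abundant at 1562 ± 154 CPM in TMP195+TNFα libraries, 733 ± 280 CPM in TPCA-1+TNFα libraries, 1420 ± 195 CPM in TNFα libraries and 1270 ± 108 CPM in DMSO libraries. It fell with TPCA-1 by 0.95 ± 0.20 on the log2 scale relative to TNFα (adjusted p = 0.00245 in edgeR's test), and stood at 0.16 ± 0.20 with TNFα over DMSO, where it was not called. Ppbp, the precursor of a neutrophil attractant, rose with TNFα over DMSO by 2.01 ± 0.43 and again with TPCA-1 over TNFα by 1.21 ± 0.38 (adjusted p = 0.0349 in edgeR's test), the opposite direction from Cxcl2. Cxcl5, another ligand of Cxcr2, reached 2.89 ± 1.02 CPM in TMP195+TNFα libraries, 0.961 ± 0.999 CPM in TPCA-1+TNFα libraries and 1.42 ± 0.976 CPM in TNFα libraries, while 3 of 4 DMSO libraries had no read. Cxcl9, which shares the receptor of Cxcl10 and is induced by interferon gamma, was at 0.0612 ± 0.0615 CPM in TPCA-1+TNFα libraries and 1.23 ± 0.564 CPM in TNFα libraries and was called lower (adjusted p = 0.000659 in edgeR's test). Cxcl14 reached at most 0.728 CPM in any library and was called in none of these 3 comparisons. So 2 of 5 were called higher with TNFα over DMSO, where 10.9% of all genes were, and 0 in either direction with TMP195 over TNFα, where 5.95% were. With TPCA-1 over TNFα 1 of 5 was called higher and 2 lower, where 9.67% of all genes were higher and 9.72% lower.

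Of 8 CXC receptors, only Cxcr3 and Cxcr4 passed the filter on low counts. Cxcr3, the receptor of Cxcl10, stood at 0.405 ± 0.146 CPM in TMP195+TNFα libraries, 1.09 ± 0.207 CPM in TPCA-1+TNFα libraries, 0.266 ± 0.161 CPM in TNFα libraries and 5.03 ± 0.526 CPM in DMSO libraries. It fell by 4.33 ± 0.37 on the log2 scale with TNFα over DMSO (adjusted p = 2.04e-07 in edgeR's test), where 12.4% of genes were called lower, and was higher with TPCA-1 over TNFα by 2.13 ± 0.41 (adjusted p = 0.00131). Ligand and receptor thus moved in opposite directions with TNFα, and in opposite directions by their estimates with TPCA-1, although the Cxcl10 estimate did not pass. The Cxcr3 values rest on few reads: 1 to 7 in TNFα libraries and 8 to 28 in TPCA-1+TNFα libraries, against 84 to 127 in DMSO libraries. Cxcr4 was higher with TPCA-1 over TNFα by 2.41 ± 0.76 (adjusted p = 0.0347 in edgeR's test), with a wide spread from 14.3 to 102 CPM in TPCA-1+TNFα libraries and from 2.50 to 16.9 CPM in TNFα libraries. Among 5 tested proteases that cut chemokines, Mmp9 rose with TNFα over DMSO by 4.26 ± 0.49 and Adam17 by 0.70 ± 0.10. Adam17, a sheddase of membrane proteins, was lower with TPCA-1 over TNFα (-0.58 ± 0.10, adjusted p = 0.000397 in edgeR's test). Mmp12, a macrophage elastase, was higher over TNFα with TMP195 by 1.42 ± 0.29 and with TPCA-1 by 0.92 ± 0.29.

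Of 19 genes of the TNF receptor and NF-kB arm, 10 rose and 0 fell with TNFα over DMSO, where 10.9% of all genes were called higher and 12.4% lower, with a median of 0.30 on the log2 scale against 0.00 over all genes. The 3 with the smallest adjusted p were Nfkbie (2.02 ± 0.21), Tnfaip3 (1.09 ± 0.13) and Nfkbia (1.61 ± 0.20), which restrain NF-kB. With TPCA-1 over TNFα 4 of 19 fell and 0 rose, where 9.72% of all genes were called lower and 9.67% higher, among them Tnfaip3 (-1.13 ± 0.13), Nfkbie (-0.85 ± 0.20) and Nfkb1 (-0.57 ± 0.11). Tnfaip3 stood at 76.0 ± 15.9 CPM in TPCA-1+TNFα libraries and 78.1 ± 5.84 CPM in DMSO libraries. Cxcl2 at 357 ± 139 CPM in TPCA-1+TNFα libraries was still far above its 17.1 ± 3.16 CPM in DMSO libraries. With TPCA-1+TNFα over DMSO 10 of 19 genes of the arm were called higher and 1 lower, by smaller folds than Cxcl2. Nfkbia, among the 10, stood at 314 ± 84.0 CPM in TPCA-1+TNFα libraries and 142 ± 36.5 CPM in DMSO libraries. Nfkbie, also among them, stood at 31.9 ± 9.37 CPM and 14.2 ± 3.45 CPM. Not all of the 10 had been called with TNFα over DMSO, so the count is not one of TNFα rises that remained. Over all genes 14.8% were called higher and 15.5% lower in that comparison. With TMP195 over TNFα 1 of 19 was called, Nfkbiz, which was lower (-0.70 ± 0.14), a share near the 5.95% called over all genes.

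Of 14 tested genes of the interferon arm, 9 fell and 1, Irf8, rose with TPCA-1 over TNFα, where 9.72% of all genes were called lower and 9.67% higher, with a median of -1.62 on the log2 scale against 0.02 over all genes. Irf7, a regulator of interferon genes, stood at 5.59 ± 0.968 CPM in TPCA-1+TNFα libraries and 228 ± 37.5 CPM in TNFα libraries. Isg15 stood at 4.78 ± 0.859 CPM in TPCA-1+TNFα libraries and 72.0 ± 14.9 CPM in TNFα libraries, and Irf9 at 12.2 ± 2.23 CPM in TPCA-1+TNFα libraries and 69.4 ± 4.84 CPM in TNFα libraries. These falls took the 3 genes below their DMSO levels of 220 ± 55.8 CPM for Irf7, 48.1 ± 9.61 CPM for Isg15 and 63.8 ± 6.97 CPM for Irf9, whereas Cxcl10 with TPCA-1 stayed at 27.4 ± 9.43 CPM, against 12.3 ± 5.68 CPM in DMSO libraries, with an overlap of TPCA-1+TNFα 2 at 17.97 CPM and DMSO 1 at 18.7 CPM and a call that ended without any of 6 of the 8 libraries. With TNFα over DMSO 1 of 14 rose, Isg15 (0.58 ± 0.19), where 10.9% of all genes were called higher. With TMP195 over TNFα 1 of 14 rose, where 2.95% of all genes were called higher: Rsad2, an antiviral enzyme (1.38 ± 0.38, adjusted p = 0.0406 in edgeR's test). It stood at 469 ± 248 CPM in TMP195+TNFα libraries and 180 ± 51.8 CPM in TNFα libraries.

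Of 9 regulators of mRNA stability, a step that is known to limit Cxcl1 and Cxcl2 transcripts, 2 rose and 2 fell with TNFα over DMSO, where 10.9% of all genes were called higher and 12.4% lower. Mapkapk2, a kinase that stabilizes inflammatory transcripts, rose by 1.06 ± 0.13, and Zfp36l1, which promotes their decay, fell by 2.55 ± 0.20 on the log2 scale. Zc3h12a, an RNase that degrades inflammatory transcripts, also rose (0.41 ± 0.14, adjusted p = 0.0469 in edgeR's test). With TPCA-1 over TNFα 1 of 9 was called lower and 1 higher, shares near the 9.72% and 9.67% of all genes. Mapkapk2 fell by 0.71 ± 0.13 on the log2 scale and Zfp36l1 rose by 1.16 ± 0.20, each opposite to its change with TNFα. Zc3h12a was not called there. Zfp36l2 was lower with TNFα over DMSO (-0.71 ± 0.10), and 0 of 9 were called with TMP195 over TNFα, where 5.95% of all genes were.

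The genes whose pattern over the 16 libraries came nearest to each member were found by the root-mean-square difference of log2 CPM, each gene centred on its own mean, among 8534 candidates with a mean of at least 5 CPM. Nearest to Cxcl1 were the alcohol dehydrogenase Adh7 (0.74), the calcium-binding S100a8 (0.86) and Cxcl2 (0.91). Nearest to Cxcl2 were Adh7 (0.59), the cystine transporter subunit Slc7a11 (0.60) and the cyclooxygenase Ptgs2 (0.61). Ptgs2 did not follow Cxcl2 in every group. With TMP195 over TNFα it differed by -1.15 ± 0.23 (adjusted p = 0.00673 in edgeR's test), where Cxcl2 was not called. Nearest to Cxcl3 were Cxcl2 (0.95), Adh7 (1.02) and the protease inhibitor Slpi (1.21). Adh7 was thus among the nearest of all 3 neutrophil attractants, at 1.56 to 5.79 CPM in TPCA-1+TNFα libraries, 11.5 to 16.5 CPM in TNFα libraries and at most 0.246 CPM in DMSO libraries. Nearest to Cxcl10 were the chemokine receptor-like Ccrl2 (0.60), Fam13a (0.62) and Pstpip2 (0.62), none of them another CXC chemokine. Ccrl2 was higher with TMP195 over TNFα by 1.00 ± 0.20 (adjusted p = 0.00774 in edgeR's test), a comparison in which Cxcl10 was not called. Nearest to Cxcl16 were Rab8a (0.12), Rnf181 (0.12) and Tcf20 (0.13), where Cxcl16 itself had an SD of only 0.23 on the log2 scale. Between members, Cxcl1 and Cxcl2 were the closest pair at 0.91 and Cxcl3 and Cxcl16 the farthest at 2.89.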

How the data were processed

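Total RNA of 16 macrophage samples was sequenced on libraries made by a standard Illumina protocol, per the labels' protocols. The authors deposited, for each library, whole-number counts of reads per Ensembl gene in unstranded and both stranded forms. Per the submitters' processing notes STAR 2.6.1d was used, with mm10 and GRCm38 named as builds. The annotation release is not given in the sources used here. The column for the strand opposite to the read was used, since the same-strand column held only 3.19% to 3.72% of the sum of both stranded columns. Rows that name no gene were kept out of library sizes and tests: reads without a gene, multimapping and unmapped reads. Of 54838 identifiers, 54723 matched GENCODE M21 for names, positions and lengths, and 115 did not.

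Genes were filtered on low counts, scaled by TMM and tested in edgeR 4.0.16 (R 4.3.3) by its quasi-likelihood test over all 4 groups and 12612 genes, with Benjamini-Hochberg adjustment and a threshold of 0.05. CPM are counts over TMM-scaled library size. Ratios within a library used log2(CPM + 0.5) and exact two-sided permutation tests. DESeq2 1.42.0 and limma 3.58.1 served as alternatives, as did other scaling, no filter, unstranded counts, only the groups compared, the replicate block and leaving out each library. The fit was tested on simulated data with 200 changed genes. A count of 0 allows up to 3 counts, or 0.0949 to 0.401 CPM by library, for counting error only.

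Replicate numbers are shared between groups. Deviations from the group means correlated between libraries of equal number at 0.33 to 0.68 for TNFα and DMSO, 0.27 to 0.65 for TMP195+TNFα and DMSO, and 0.37 to 0.67 for TMP195+TNFα and TNFα, so these groups are paired by the data. Pairs with TPCA-1+TNFα did not all exceed 0.1.

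The members and gene lists were chosen with earlier results of these data known. Named genes are the members, every tested CXC ligand and receptor, up to 3 genes of each other list with the smallest adjusted p past the threshold in TNFα over DMSO and each inhibitor over TNFα, the marker of each cell type list with the highest mean, and the 3 genes most like each member. Irf8, Zc3h12a, Il16 and Lyzl4 were named after their values were seen. Promoter windows are RefSeq sequence of GRCm38.p6, matched by symbol for 4 of 5 members.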

Additional observations from a re-analysis of the deposited data

Results flagged for a closer look

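In 2 of 20 sets of 4 libraries (5 genes, 4 groups), 1 library lay far from the other 3 by Dixon's criterion, where the gap to the nearest library over the whole range exceeds 0.829; chance gives about 1 in 20. Cxcl1 in TPCA-1+TNFα 4, at 6.08 CPM against 48.0 to 55.8 CPM in the other 3 libraries, had a gap of 0.843 of the range. Cxcl3 in DMSO 4, at 2.03 CPM against 0.492 to 0.737 CPM in the other 3 libraries, had a gap of 0.841 of the range. Both libraries carry the number 4. DMSO 4 also differed from the rest of its group over all genes, while in the TPCA-1+TNFα group the chi-square per gene was 35.5 to 42.1 in pairs with number 4 and 37.9 to 73.6 in the other pairs; the part of such differences in these values was not tested.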

How the results depend on the processing

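The 5 calls for TNFα over DMSO held under every alternative run, and 0 of 5 members were called for TMP195+TNFα over TNFα in any. For TPCA-1+TNFα over TNFα, limma called 3 members (Cxcl1 -2.14, Cxcl3 -1.07), no filter 4 (Cxcl1 -1.40, Cxcl3 -0.82, Cxcl10 -1.24), a replicate block 3 (Cxcl1 -1.50, Cxcl10 -1.22), a fit of only the 2 groups 2 (Cxcl10 -1.22) and number 4 left out of every group 2 (Cxcl1 -1.26). For TMP195+TNFα over TPCA-1+TNFα, limma called 4 members (Cxcl1 2.25, Cxcl3 0.94), no filter 4 (Cxcl1 1.48, Cxcl3 0.85), and Cxcl1 also passed with the block (1.58) and without number 4 (1.35). Cxcl10 for TPCA-1+TNFα over DMSO missed the threshold with DESeq2 size factors (1.17), DESeq2 (1.15), limma (1.27) and without number 4 (1.10). Estimates near 0 changed sign for Cxcl3 with TMP195 over TNFα in limma (-0.13) and without number 4 (-0.10), and for Cxcl16 with TPCA-1 over TNFα on unstranded counts (0.031) and without number 4 (0.061). Over all genes, TMP195+TNFα over TNFα gave 1209 calls in DESeq2, 1778 in limma, 1699 with the block and 366 without number 4, against 750; TPCA-1+TNFα over TNFα gave 1551 with only the 2 groups and 3835 with the block, against 2446. The cause of these changes was not tested. The block changed no member's call in the 3 paired comparisons. Numbers pair TPCA-1+TNFα libraries only loosely (20 of 24 correlations over 0.1 in all, lowest -0.043). For 9 of 16 libraries the own number gave the best correlation in every other group, TPCA-1+TNFα included.

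Leaving out 1 library gave these ranges. TMP195+TNFα over TNFα: Cxcl1 -0.21 to 0.40, Cxcl3 -0.087 to 0.18, Cxcl10 -0.047 to 0.80, and 446 to 597 calls over all genes. TPCA-1+TNFα over TNFα: Cxcl1 -1.63 to -1.01, Cxcl3 -1.12 to -0.52, Cxcl10 -1.39 to -1.01, Cxcl16 -0.059 to 0.037, and 1 to 3 members called. TMP195+TNFα over TPCA-1+TNFα: Cxcl1 1.09 to 1.71, Cxcl3 0.56 to 1.15 and Cxcl10 1.17 to 2.01. Over DMSO, Cxcl16 ranged from 0.29 to 0.46 with TMP195 and Cxcl10 from 0.91 to 1.44 with TPCA-1. Depth limits the folds over DMSO where DMSO libraries hold few reads: 9 to 80 for Cxcl1, 11 to 39 for Cxcl3, and 0 in 3 of 4 libraries for Cxcl5.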

Other observations

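The upstream motifs were looked up over all genes after the members' sequences had been seen, as a description with no test. Of the 13 genes whose window holds gggaatttccc, 7 were tested, and with TNFα over DMSO 3 rose (Cxcl1, Cxcl2 and Cxcl3) and 2 fell, Il16 by 1.45 and Lyzl4 by 1.82 on the log2 scale. The same run of letters thus stood before genes that moved in both directions. It was picked because Cxcl1, Cxcl2 and Cxcl3 share it, so their rise gives no information on the run. No other tested gene that holds it was called higher. Of 288 tested genes with the interferon-response core that Cxcl10 holds, 70 (24.3%) fell and 23 (7.99%) rose with TPCA-1 over TNFα, where 10.3% of the 9289 tested genes with a window fell and 10% rose. In that comparison 105 (12.3%) of 857 tested genes with an NF-kB consensus match fell and 92 (10.7%) rose. For the AP-1 core 56 (12.1%) of 463 fell and 51 (11%) rose. With TNFα over DMSO 128 (14.9%) of the 857 genes with an NF-kB match rose and 107 (12.5%) fell. Of the 288 genes with the interferon-response core, 37 (12.8%) rose and 48 (16.7%) fell. Of 463 tested genes with the AP-1 core, 76 (16.4%) rose and 74 (16%) fell. Among all tested genes with a window, 11.4% rose and 13.1% fell.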
